A study of Homo sapiens with 4 samples.

Results

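The 31 genes described here make cholesterol and fatty acids or control that synthesis: 20 genes of sterol synthesis, feedback and transport, 8 genes of fatty acid synthesis and 3 SREBP regulators. They were chosen by name among 52402 gene symbols in the count tables, with earlier results of these data known, and all 31 were found. The libraries carry the names of SKOV3 and OVCAR3, established human lines from ovarian tumours. From each line there was a mock control (genotype "Control") and a culture in which the envelope gene of the endogenous retrovirus HERV-K119 had been knocked out with CRISPR-Cas9 (KO). All 4 cultures were transfected, were given 100 μg/mL hygromycin for 2 days starting about 18 h later, and grew in medium with 10% fetal bovine serum, which itself brings lipids. Each group held 1 library, and the labels do not say whether a KO culture was a clone or a pool of cells.

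Cells build cholesterol from acetyl-CoA through mevalonate, isoprenoids and squalene, and they build fatty acids from the same precursor by way of malonyl-CoA. Both arms are switched on by the SREBP transcription factors. SREBP precursors are held in the endoplasmic reticulum by SCAP and INSIG1, and when membrane sterol is low SCAP escorts them to the Golgi, where proteolysis releases the active factor. SREBF2 encodes the form that mainly drives sterol genes and SREBF1 the forms that mainly drive fatty acid genes. INSIG1 is itself an SREBP target and serves as a feedback brake. Many tumours make their own fatty acids at a high rate, with FASN as the best known enzyme.

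Promoter sequences of 6 members are printed with letter matches to the sterol regulatory element, bound by SREBP, and to the box of its partner NF-Y. They are 4 of genes at least 2-fold lower in the OVCAR3-labelled KO library (SREBF2, INSIG1, MVD, SCD) and 2 of genes that were not (MSMO1, EBP). All 6 hold an NF-Y box. SREBF1 and SCAP, also at least 2-fold lower, had no match to either motif and are not printed. Each runs 5′ to 3′ from 250 bases before to 50 bases after the transcription start, from RefSeq (GRCh38.p14). Capitals mark matches, on either strand, to the sterol regulatory element TCACNCCAC (found in SREBF2 alone) and to the NF-Y box CCAAT, which reads as ATTGG when it lies on the other strand.
SREBF2, chr22:41832855-41833154, plus strand: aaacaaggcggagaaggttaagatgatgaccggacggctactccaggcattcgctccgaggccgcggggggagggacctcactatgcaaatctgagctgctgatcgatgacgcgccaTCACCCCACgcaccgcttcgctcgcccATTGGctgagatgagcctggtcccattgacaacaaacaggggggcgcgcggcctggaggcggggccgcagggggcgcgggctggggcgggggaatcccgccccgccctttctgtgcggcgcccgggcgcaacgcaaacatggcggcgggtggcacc
INSIG1, chr7:155297628-155297927, plus strand: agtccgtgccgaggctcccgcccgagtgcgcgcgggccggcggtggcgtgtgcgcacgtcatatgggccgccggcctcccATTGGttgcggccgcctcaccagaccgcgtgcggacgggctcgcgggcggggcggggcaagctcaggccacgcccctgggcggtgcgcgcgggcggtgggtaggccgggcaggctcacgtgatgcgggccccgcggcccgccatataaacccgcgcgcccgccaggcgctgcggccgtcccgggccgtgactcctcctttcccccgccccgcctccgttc
MVD, chr16:88663042-88663341, minus strand: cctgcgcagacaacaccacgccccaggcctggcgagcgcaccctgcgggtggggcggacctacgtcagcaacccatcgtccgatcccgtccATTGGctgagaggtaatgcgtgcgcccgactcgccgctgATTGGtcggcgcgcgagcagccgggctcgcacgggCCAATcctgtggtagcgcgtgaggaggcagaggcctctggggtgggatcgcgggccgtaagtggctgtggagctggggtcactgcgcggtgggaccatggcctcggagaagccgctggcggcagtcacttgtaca
SCD, chr10:100346983-100347282, plus strand: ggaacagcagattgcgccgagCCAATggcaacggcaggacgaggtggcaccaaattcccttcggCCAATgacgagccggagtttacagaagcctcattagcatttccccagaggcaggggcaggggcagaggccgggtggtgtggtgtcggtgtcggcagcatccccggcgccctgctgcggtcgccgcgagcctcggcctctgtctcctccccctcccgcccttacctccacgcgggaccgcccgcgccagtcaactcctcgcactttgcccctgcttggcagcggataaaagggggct
MSMO1, chr4:165327419-165327718, plus strand: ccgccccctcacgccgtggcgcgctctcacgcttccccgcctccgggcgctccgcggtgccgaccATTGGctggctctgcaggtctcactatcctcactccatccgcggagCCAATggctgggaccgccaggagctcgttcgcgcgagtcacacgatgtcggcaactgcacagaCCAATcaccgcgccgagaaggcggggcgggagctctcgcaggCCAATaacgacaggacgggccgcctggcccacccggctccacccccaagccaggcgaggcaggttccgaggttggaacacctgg
EBP, chrX:48521558-48521857, plus strand: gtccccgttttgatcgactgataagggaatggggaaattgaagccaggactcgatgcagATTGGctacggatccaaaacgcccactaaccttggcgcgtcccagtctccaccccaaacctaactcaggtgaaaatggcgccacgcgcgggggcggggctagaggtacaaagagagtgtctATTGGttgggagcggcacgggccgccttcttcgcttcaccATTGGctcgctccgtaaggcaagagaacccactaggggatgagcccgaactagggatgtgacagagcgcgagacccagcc

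Of the 31 members, 27 had a promoter in the RefSeq table, with 37 windows because some genes have several starts. FASN, ACAT2, SQLE and FDFT1 had none. The members with the lowest (FASN) and the highest (ACAT2) ratio in the OVCAR3-labelled pair are thus left out of what follows. The NF-Y box stood in 25 of the 37 windows (67.6%), against 34.6% of all 35116 promoter windows in the table and 34.7% of those of protein-coding genes. By arm it stood in 17 of 22 sterol, 7 of 12 fatty acid and 1 of 3 regulator windows. The SP1 box GGGCGG was in 33 of 37 member windows (89.2%), against 45.0% of all windows and 56.3% of those of protein-coding genes. The E-box CACGTG was in 5 of 37 (13.5%), against 7.26% and 8.34%. Windows of a gene can overlap, so a site can count more than once. Those of SC5D share an E-box and an NF-Y box, and those of ACLY share both NF-Y boxes. The letters TCACNCCAC were found in 1 member window (2.7%), that of SREBF2, at 133 to 125 bases before the start, and in 1.13% of all windows. No 2 different motifs overlapped in a member window. The NF-Y box did not separate members by their change: it was present for 8 of the 10 members with a window that were at least 2-fold lower in the OVCAR3-labelled KO library and for 13 of the other 17. A match is a run of letters, not a shown binding site.

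Total counts lay between 15145483 and 22057693 per library. Levels are CPM, a gene's count per megaread of its library's total, after scaling by the trimmed mean of M values (TMM). Ratios are log2 of KO over mock, after 2 counts were added as a prior. Brackets hold exact 95% intervals of the ratio of 2 counts, which cover counting error only, since no group had a second library. A gene counts as measured with at least 1 CPM in a library of the pair, and as lower or higher with a change of at least 2-fold. The OVCAR3-labelled KO library stood apart: mitochondrial rows took 21.92% of its counts, against 5.16% to 5.93% in the other 3. The 6 epithelial markers were present in all 4 libraries, with summed levels of 5170 to 7610 CPM in 3 of them and 2090 CPM in the OVCAR3-labelled KO. Of 3 leukocyte markers PTPRC and CD3E were at 0 in all 4, and CD68 had 35.4, 34.6, 15.2 and 8.21 CPM in SKOV3 mock, SKOV3 KO, OVCAR3 mock and OVCAR3 KO. The 5 fibroblast or mesenchymal markers summed to 19.7 to 36.1 CPM. Most of that was COL1A1, at 17.4 to 35 CPM, and VIM had 0.95 to 2.35 CPM. Of the ovarian markers PAX8 had 3.33 to 8.83 CPM, and WT1 and SOX17 were at 0 in all 4. MUC16 had 2.74 and 6.18 CPM in OVCAR3 mock and KO, against 0.0443 and 0.0634 CPM in SKOV3 mock and KO. ERBB2 had 58.5, 55.7, 73.3 and 32 CPM in SKOV3 mock, SKOV3 KO, OVCAR3 mock and OVCAR3 KO. The line labels were not borne out throughout, since CDKN2A, deleted in SKOV3 cells, had 90.6 and 91.2 CPM in the SKOV3-labelled libraries. The identity of neither line was resolved, so both line names below are labels of libraries.

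In the mock cultures the fatty acid arm was dominated by FASN and SCD. Per kilobase of transcript, FASN, the synthase that assembles palmitate, had 115.3 CPM in SKOV3 mock and 132.5 CPM in OVCAR3 mock, and SCD, the desaturase that makes oleate, had 109.9 and 109.1 CPM. These were the highest 2 of the 31 members in both mock libraries and in SKOV3 KO. CYP51A1 (lanosterol demethylase), FDFT1 (squalene synthase) and SREBF2 came within the 6 highest in these 3 libraries. FASN and SCD together made up 48.9% of the members' counts in SKOV3 mock, 49.6% in SKOV3 KO and 51.0% in OVCAR3 mock, but 22% in OVCAR3 KO. In that library FASN stood 11th at 13.98 CPM per kilobase, and FDFT1 stood highest at 42.8. The plot of levels per kilobase shows this reordering.

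**Figure D1:**
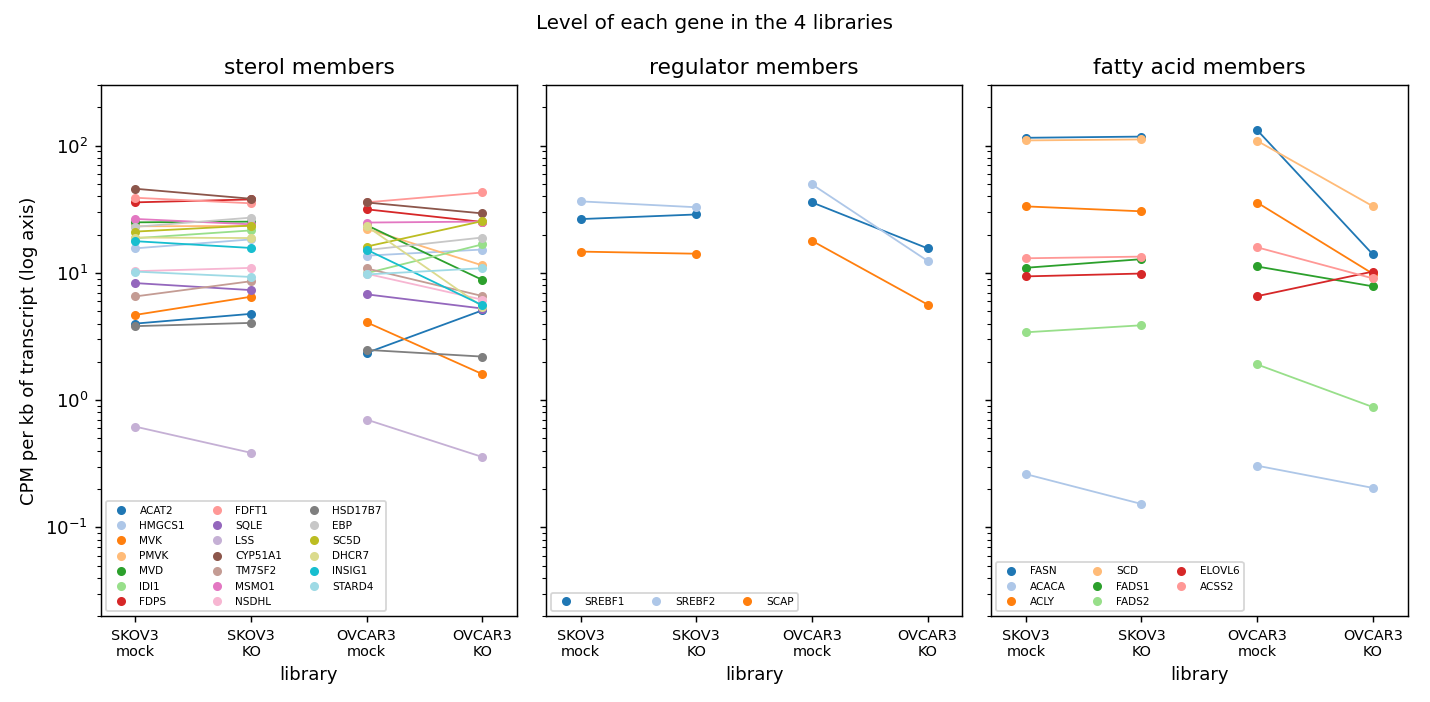
Level of each member, as CPM per kilobase of its longest transcript on a log axis, in the 4 libraries (x axis), by arm; lines join the mock and KO library of a line. The SKOV3-labelled pair runs nearly flat apart from the low LSS and ACACA, whereas FASN goes from 132.5 to 13.98 and SREBF2 from 49.7 to 12.4 between the OVCAR3-labelled mock and KO.

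Between the mock libraries the pathway was at similar levels. None of 31 members differed by 2-fold, with 5.52% of 13721 measured genes at least 2-fold lower and 9.47% at least 2-fold higher in OVCAR3 mock. The members' median log2 ratio of OVCAR3 over SKOV3 mock was -0.07, and 20 of 31 lay below 0. The lowest was IDI1, isopentenyl diphosphate isomerase, at 33.5 CPM in OVCAR3 mock and 63.2 in SKOV3 mock, a log2 ratio of -0.91 (-1.06 to -0.77). FADS2, the delta-6 desaturase of polyunsaturated fatty acids, had -0.83 (-1.11 to -0.57). The highest was TM7SF2, a sterol reductase, at 0.73 (0.51 to 0.95).

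In the SKOV3-labelled pair both arms were close to 1:1. No member was past 2-fold in either direction, where 0.739% of 13524 measured genes were lower and 0.799% higher (0.338% and 0.641% of protein-coding genes). The median log2 ratio was 0.05 over the 20 sterol members, 0.04 over the 8 fatty acid members and -0.055 over the 3 regulators, against 0.005 over all measured genes. FASN had 988 CPM in mock and 1009 CPM in KO, and SCD 589 and 600.1 CPM. SREBF2 had 208 and 187 CPM, a log2 ratio of -0.15 (-0.22 to -0.09), and SREBF1 had 123 and 134 CPM, 0.12 (0.04 to 0.20). SCAP was at -0.06 (-0.17 to 0.06) and INSIG1 at 53.4 against 47.2 CPM, -0.18 (-0.31 to -0.04).

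The sterol arm of the SKOV3-labelled pair was also read by stretch of the pathway. All 7 genes from acetyl-CoA to farnesyl diphosphate had a log2 ratio above 0, with a median of 0.20, where 48.9% of all measured genes lay below 0. That count was 6 with DESeq2 size factors or TMM over all genes, where PMVK (phosphomevalonate kinase) was just below 0, and 5 with the trend on GC content and length removed, where MVD (mevalonate decarboxylase) was below 0 as well. MVK, mevalonate kinase, had the highest ratio of all members, 19.2 CPM in mock and 26.7 in KO, 0.47 (0.28 to 0.67). HMGCS1, which makes HMG-CoA, had 0.23 (0.11 to 0.35), IDI1 0.20 (0.09 to 0.32) and ACAT2 0.25 (3e-04 to 0.51). The intervals of PMVK, 0.01 (-0.16 to 0.18), MVD, 0.02 (-0.10 to 0.14), and FDPS, 0.08 (-0.03 to 0.19), spanned 0. Of the 11 genes from squalene to cholesterol, 5 were above 0 and 6 below, with a median of -0.01 that was 0.0358 without LSS and ACACA. CYP51A1 had 147 CPM in mock and 123 in KO, -0.26 (-0.34 to -0.18), and TM7SF2 0.39 (0.16 to 0.63). The 2 lowest ratios, LSS (lanosterol synthase) at -0.65 (-1.35 to -0.05) and ACACA (acetyl-CoA carboxylase) at -0.74 (-1.53 to -0.07), rest on few counts.

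LSS and ACACA need a caution in every library. Each of these symbols stands in 2 rows of the tables, which were summed, and their totals were 26 to 69 counts for LSS and 24 to 59 counts for ACACA. Per kilobase they were the lowest 2 of the 31 members in all 4 libraries. The treatment of reads that fit both rows of a symbol is not known, so these totals may not reflect the genes' levels.

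In the OVCAR3-labelled pair 11 of 31 members (35.5%) were at least 2-fold lower in KO and 1, ACAT2, was at least 2-fold higher. That higher call was lost under each of the 3 other scalings. Over all 15560 measured genes 15.4% were lower and 22.5% higher, and over protein-coding genes 18.3% and 13%. A ratio below 0 was found for 22 of 31 members, and for 43.8% of all measured and 50.7% of protein-coding genes. The members' median was -0.67, against 0.16 over all measured genes and -0.02 over protein-coding genes. The groups differed: 3 of 3 regulators, 4 of 8 fatty acid members and 4 of 20 sterol members were lower. The sterol share, 20%, was near the 18.3% of protein-coding genes. Summed over genes, the fatty acid arm had 2029 CPM in mock and 478 in KO, the sterol arm 812 and 712, and the regulators 528 and 168. The plot of ratios by member sets both pairs side by side.

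**Figure D2:**
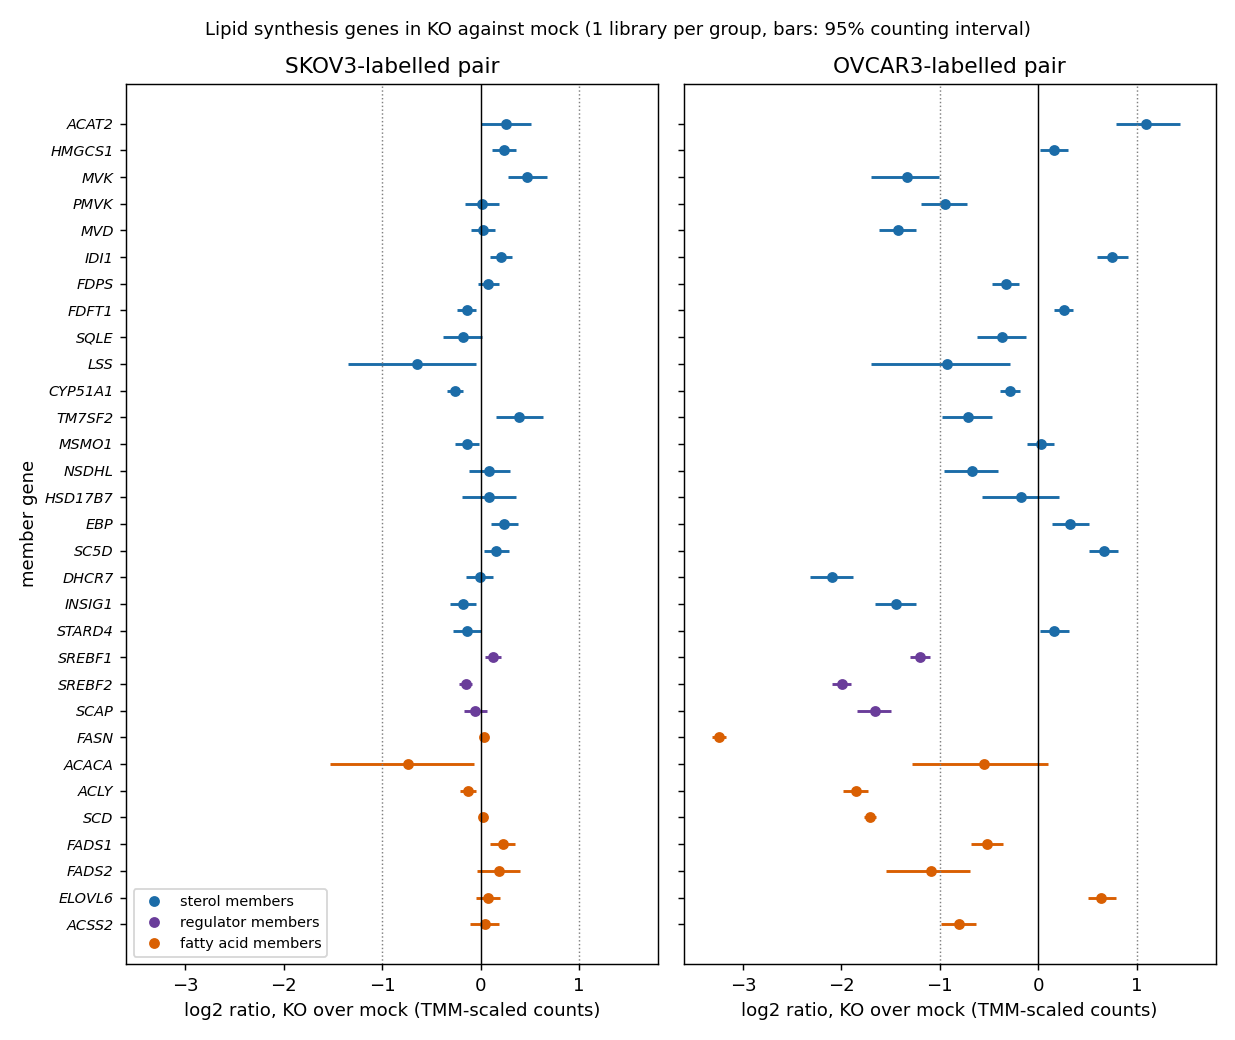
Log2 ratio of KO over mock for each of the 31 members (y axis) in the SKOV3-labelled (left) and OVCAR3-labelled (right) pair, with bars for the exact 95% counting interval, a solid line at 0 and dotted lines at 2-fold. On the left all points lie between -0.74 and 0.47; on the right they spread from -3.24 (FASN) to 1.10 (ACAT2), and the 3 regulators lie between -2.00 and -1.20.

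The 3 regulators of the pathway were all lower in OVCAR3 KO. SREBF2 (chromosome 22, 41833105 to 41907305) had 283 CPM in mock and 70.9 in KO, a log2 ratio of -2.00 (-2.10 to -1.90). SCAP, the sterol-sensing escort of SREBP, had 78.6 and 24.8 CPM, -1.66 (-1.84 to -1.50). SREBF1 had 167 and 72.6 CPM, -1.20 (-1.30 to -1.10), as a sum over its transcript forms, which gene counts do not separate. INSIG1, the feedback brake, had 45.8 and 16.8 CPM, -1.44 (-1.66 to -1.24). For SREBF2, SCAP and SREBF1 the OVCAR3 mock level was the highest of the 4 libraries, for INSIG1 the lower of the 2 mocks, and for all 4 genes the OVCAR3 KO level was the lowest.

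The fatty acid arm held the largest change of any member. FASN (chromosome 17, 82078338 to 82098236) had 1135 CPM in OVCAR3 mock and 119.7 in KO, a log2 ratio of -3.24 (-3.32 to -3.17), or 9.47-fold lower. ACLY, which cleaves citrate to cytosolic acetyl-CoA, had 155 and 42.8 CPM, -1.85 (-1.99 to -1.73). SCD had 585 and 179 CPM, -1.71 (-1.77 to -1.64). FADS2 had 9.68 and 4.48 CPM, -1.09 (-1.55 to -0.69). These 4 enzymes had their lowest level of the 4 libraries in OVCAR3 KO.

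The rest of the fatty acid arm was nearer to its mock. ACSS2, which makes acetyl-CoA from acetate, had 48.7 CPM in mock and 27.8 in KO, -0.81 (-0.99 to -0.64). FADS1, the delta-5 desaturase, had 50.8 and 35.5 CPM, -0.52 (-0.68 to -0.36); it lies next to FADS2, and the 2 genes overlap by 801 bases, so some reads may belong to its neighbour. ELOVL6, which lengthens palmitate to stearate, was the only fatty acid member above 0, at 42.4 CPM in mock and 66.1 in KO, 0.64 (0.50 to 0.78). ACACA, on 50 and 30 counts, had -0.55 (-1.28 to 0.10).

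In the sterol arm, the mevalonate steps split. The 3 enzymes that phosphorylate and decarboxylate mevalonate were low in OVCAR3 KO: MVK, which overlaps MMAB by 233 bases, had 16.8 CPM in mock and 6.58 in KO, -1.34 (-1.70 to -1.01). PMVK, phosphomevalonate kinase, had 28.4 and 14.7 CPM, -0.95 (-1.19 to -0.72). MVD, the decarboxylase, had 55.8 and 20.7 CPM, -1.42 (-1.62 to -1.24). The other 4 members of this stretch differed from them. ACAT2, the cytosolic thiolase at the entry, had 7.49 CPM in mock and 16.2 in KO, 1.10 (0.79 to 1.44), which was 0.81 to 0.98 under the other scalings, and IDI1 had 33.5 and 56.5 CPM, 0.75 (0.59 to 0.91). ACAT2 overlaps TCP1 by 615 bases and IDI1 overlaps IDI2-AS1 by 5050 bases, and it is not known whether counting took account of strand. HMGCS1, at 47.9 and 53.5 CPM, had 0.16 (0.01 to 0.30), a sign that turned to -0.0499 with DESeq2 size factors. FDPS had 63.7 and 50.7 CPM, -0.33 (-0.47 to -0.19), and -0.62 with TMM over all genes; its processed copy FDPSP2 went from 5 to 159 counts, and reads could be split between near-identical copies.

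From squalene to cholesterol the OVCAR3-labelled changes were smaller, apart from the last step. DHCR7, which converts 7-dehydrocholesterol to cholesterol, had 62.0 CPM in mock and 14.5 in KO, -2.09 (-2.32 to -1.89), the lowest of the 20 sterol members. SC5D, the enzyme that supplies its substrate, had 39.6 and 62.7 CPM, 0.66 (0.52 to 0.81), but 0.0137 with the trend on GC content and length removed. EBP, the sterol isomerase, had 26.8 and 33.7 CPM, 0.33 (0.14 to 0.52), and MSMO1, the methyl oxidase, 56.4 and 57.4 CPM, 0.03 (-0.11 to 0.16), which was -0.27 to -0.0893 under the other scalings and -0.67 with that trend removed. FDFT1 had 95.4 and 114 CPM, 0.26 (0.16 to 0.36), and STARD4, a sterol carrier, 0.16 (0.01 to 0.31); with TMM over all genes these were -0.0343 and -0.13. SQLE (squalene epoxidase) at -0.37, CYP51A1 at -0.28, TM7SF2 at -0.72 and NSDHL (a sterol dehydrogenase) at -0.67 were lower by less than 2-fold, with intervals below 0. HSD17B7, a sterol ketoreductase with a transcribed pseudogene, had -0.17 (-0.57 to 0.21), and LSS, on 57 and 26 counts, -0.93 (-1.70 to -0.28).

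The arms were compared by their medians. In the SKOV3-labelled pair the fatty acid median minus the sterol median was -0.01. In the OVCAR3-labelled pair the fatty acid median was -0.95 and the sterol median -0.31, a difference of -0.64. It was -0.64 under the 3 other scalings as well. A scaling shifts all ratios of a pair nearly alike, so it could not change this difference. Without LSS and ACACA it was -0.81. As a ratio of summed counts, in which FASN and SCD weigh most, the fatty acid arm had -2.09 and the sterol arm -0.19. With the trend on GC content and length removed, the medians were -0.50 and -0.48, and the difference was -0.0223. The arms overlapped, since the sterol members ran from -2.09 to 1.10 and the fatty acid members from -3.24 to 0.64. Within a pair no test is possible on 1 library per group, and the difference of the arms was not tested over both lines.

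**Figure D3:**
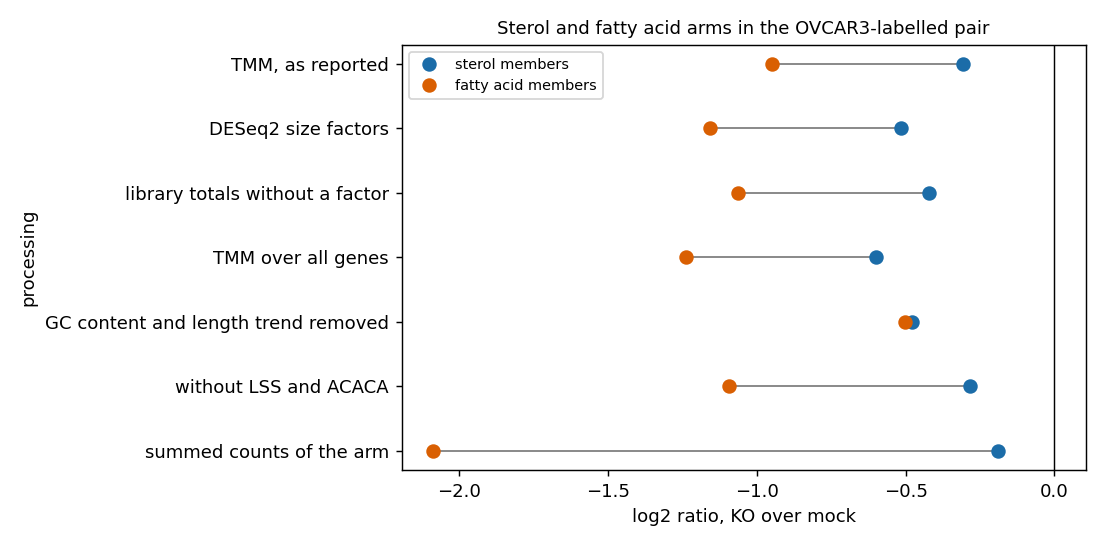
Median log2 ratio of KO over mock in the OVCAR3-labelled pair for the 20 sterol and 8 fatty acid members (points, x axis) under 7 ways of processing (y axis; the lowest row is the ratio of summed counts instead of the median). The fatty acid point lies 0.64 below the sterol point as reported, 1.90 below it for summed counts, and at nearly the same place (difference -0.0223) once the trend on GC content and length is removed. The other scalings shift both points together and could not change their distance.

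GC content moved with the change in the OVCAR3-labelled pair. Across the 31 members the log2 ratio and the GC content of the transcript had a Spearman correlation of -0.67, and across 12541 protein-coding genes -0.42; in the SKOV3-labelled pair these were 0.13 and 0.13. All values share the same 2 libraries, so they are a description. FASN has 65.3% GC, MVD 63.7%, SREBF1 62.8% and SCAP 62.3%, whereas IDI1 has 41.1%, SC5D 38.6% and STARD4 34.2%. Other members lay off this slope. TM7SF2, at 64.2% GC, was within 2-fold at -0.72. CYP51A1 (41.5%), HSD17B7 (41.7%) and MSMO1 (38.1%) had -0.28, -0.17 and 0.03. With the trend removed 7 members were at least 2-fold lower: FASN at -2.60, DHCR7 at -1.66, SCD at -1.60, ACLY at -1.56, INSIG1 at -1.52, SREBF2 at -1.46 and SCAP at -1.045. The share of all genes at least 2-fold lower with the trend removed is not given here, so this count has no background beside it. MVD (-0.94), MVK (-0.81), SREBF1 (-0.57) and FADS2 (-0.52) were then within 2-fold, and ACAT2 was at 1.24. INSIG1 and SCD have GC contents of 46.0% and 47.1%, below the median of 48.6% of genes measured in this pair. Members also below that median lay above 0 as reported, such as IDI1 at 0.75, SC5D at 0.66 and ELOVL6 at 0.64. The part of GC content, of the mitochondrial share and of the lower epithelial marker sum in these changes was not tested.

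**Figure D4:**
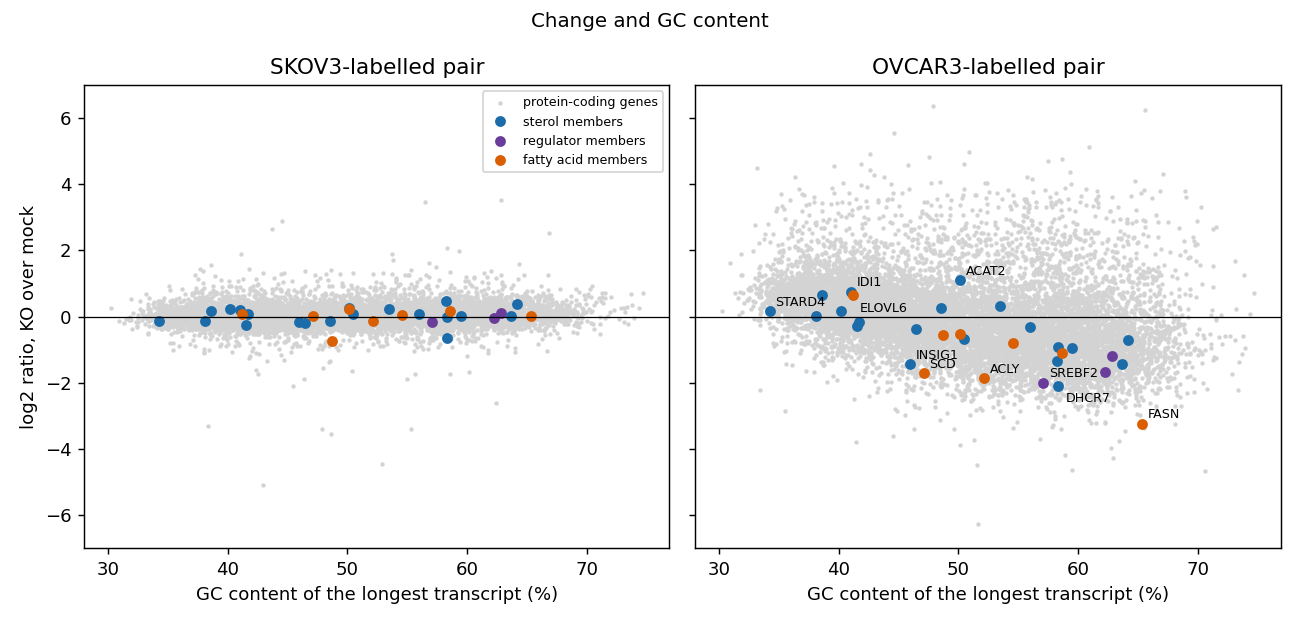
Log2 ratio of KO over mock (y axis) against GC content of the longest transcript in percent (x axis) for protein-coding genes (grey) and the 31 members (coloured by arm), in the SKOV3-labelled (left) and OVCAR3-labelled (right) pair. On the right the members slope downward (Spearman -0.67, against -0.42 for protein-coding genes). There SCD and INSIG1 lie low at GC contents of 47.1% and 46.0%, and IDI1 and ELOVL6 lie above 0 at 41.1% and 41.2%. On the left the members lie flat.

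Over both lines no member was called. In edgeR's quasi-likelihood test of KO against mock with the line as a block, 0 of 31 members and 0 of 13670 genes (0%) had an adjusted p under 0.05; at an unadjusted p under 0.05 there were 140 genes and 0 members. DESeq2 and limma-voom called 0 genes too, with 412 and 306 genes and 2 and 1 members at an unadjusted p under 0.05. FASN had a log2 change of -1.61 (SE 0.81) and an edgeR adjusted p of 0.956, SREBF2 -1.07 (SE 0.55, adjusted p 0.956), and each was below 0 in 1 and 2 of the 2 lines. In the same fit, OVCAR3 against SKOV3 called 5 of 13670 genes (0.0366%) and 0 members. FADS2 came closest, at -1.47 with an edgeR adjusted p of 0.308, lower in the OVCAR3-labelled library in both genotypes. Nothing in the labels beyond the line says that cultures were separate, so these p-values rest on 4 libraries with 1 residual degree of freedom. That degree of freedom is how far the KO change differs between the lines. A change in 1 line alone thus adds to the error it is set against. FASN, for instance, had 0.03 in the SKOV3-labelled and -3.24 in the OVCAR3-labelled pair.

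Genes around the 2 arms were read from lists of related genes. In the SKOV3-labelled pair none of the 9 lists had a member past 2-fold. In the OVCAR3-labelled pair the counts stand against 15.4% of all and 18.3% of protein-coding genes lower. In the OVCAR3-labelled pair the list of carbon and NADPH supply was the lowest, with 5 of 8 measured genes (62.5%, of 9 listed) at least 2-fold lower, none higher and a median of -1.16, against -0.67 for the 31 synthesis members and 0.16 for all genes. ME1, malic enzyme, had -1.79 (-1.94 to -1.64), and SLC25A1, the mitochondrial citrate carrier, -1.59 (-1.72 to -1.47). Among 11 genes of SREBP processing and degradation, 2 (18.2%) were lower and none higher, a share near that of all genes, with a median of -0.17: SEC24D, a coat protein of vesicles leaving the endoplasmic reticulum, had -1.49 (-1.69 to -1.31) and FAF2 -1.02 (-1.13 to -0.91). Of 12 measured elongation and desaturation genes 2 (16.7%) were lower and 1 higher, again near the share of all genes, with a median of -0.03. TECR, the last reductase of the elongation cycle, had -1.99 (-2.12 to -1.86), and ELOVL1, an elongase of long saturated chains, -1.42 (-1.55 to -1.30). The isoprenoid branch had 1 of 9 (11.1%) lower, FNTB, a farnesyltransferase subunit, at -1.04 (-1.51 to -0.63), and a median of -0.10. Of 8 other lipogenic regulators 1 (12.5%) was lower, MID1IP1, which activates acetyl-CoA carboxylase, at -1.51 (-1.63 to -1.40).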

How the data were processed

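RNA was sequenced from 4 cultures, 1 library each, and groups came from the sample titles. The authors deposited raw counts of reads per gene symbol, not normalised. TopHat and GRCh38 were used, per the submitters' processing notes; which tool and annotation produced the counts, and with what strand rule, is not given in the sources used here. A directional kit was used, per the labels' protocols. Rows of the same symbol (2687 symbols) were summed. TMM factors (edgeR 4.0.16, R 4.3.3) came from the 13670 genes that reached 1 CPM in 2 or more of the libraries and were 1.02, 1.04, 1.01 and 0.931 for SKOV3 mock, SKOV3 KO, OVCAR3 mock and OVCAR3 KO. The limit behind a value of 0 was set at 3 counts, or 0.136 to 0.198 CPM. Reads carry no molecular identifiers, so intervals cover counting error only.

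The test across both lines was edgeR's quasi-likelihood test on those genes, with Benjamini-Hochberg adjustment, with DESeq2 1.42.0 and limma 3.58.1 as alternatives; the fit was checked on simulated counts. Transcript length and GC content came from the longest GENCODE transcript of a symbol. The trend on them was a spline with 5 degrees of freedom each, over protein-coding genes, keeping the mean. Coordinates are from RefSeq, GRCh38.p14. The members and gene lists were chosen with earlier results of these data known. All members are accounted for. Genes of other lists were named if past 2-fold in a pair with at least 100 counts in it, at most 3 a list. A gene that this rule would name is not reported here.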

Additional observations from a re-analysis of the deposited data

Results flagged for a closer look

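For 4 members the log2 ratio of KO over mock lay on opposite sides of 0 in the 2 lines, with both counting intervals away from 0 and the sign kept under every processing alternative run. MVK had 0.47 in the SKOV3-labelled and -1.34 in the OVCAR3-labelled pair. TM7SF2 had 0.39 and -0.72. SREBF1 had 0.12 and -1.20. FADS1 had 0.22 and -0.52. The difference between the lines was not tested, since each line had 1 library per genotype.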

How the results depend on the processing

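Every median and count of the SKOV3-labelled pair stayed close under the alternatives, except that 2 members (LSS and ACACA) were at least 1.5-fold lower. In the OVCAR3-labelled pair scaling moved all ratios together: the median of all measured genes was 0.16 as reported, -0.07 with DESeq2 size factors, 0.04 with library totals and -0.17 with TMM over all genes, the last chosen after seeing the data. The number of lower members was then 14, 13 and 15, and of higher members 0 in each. Shares over all genes are given only for the reported scaling at 2-fold, so counts of members under an alternative stand without one. The sterol median was -0.52 with DESeq2 size factors and -0.60 with TMM over all genes, and the regulator median -1.87 and -1.95. HMGCS1 turned to -0.0499 and STARD4 to -0.0458 with DESeq2 size factors; with TMM over all genes HMGCS1 was -0.13, FDFT1 -0.0343 and STARD4 -0.13. With the GC content and length trend removed, 7 members were lower, the fatty acid median was -0.50, the regulator median -1.045, the difference of the arms -0.0223, HMGCS1 -0.32, STARD4 -0.54 and, in the SKOV3-labelled pair, FASN -0.028. At 1.5-fold 4 members were higher, and at 3-fold 6 were lower and 0 higher. Summed counts gave -2.09 for the fatty acid arm and -1.90 for the difference, an alternative added after seeing the data. Other priors, other CPM filters, leaving out mitochondrial rows and leaving out LSS and ACACA changed no sign of a member or of an arm's median and no count of members past 2-fold. Among medians of single lists, the squalene and sterol ring genes of the SKOV3-labelled pair turned to 0.0358 at CPM of at least 5 and without LSS and ACACA. In the OVCAR3-labelled pair sterol storage and transport turned to -0.18 at CPM of at least 5, and other lipogenic transcription factors to 0.0262 with no filter. The causes of these shifts were not tested beyond the construction of each alternative. The count of called members was 0 in the 8 fits of each test, with the smallest adjusted p of a member between 0.93 and 1 for KO against mock and between 0.148 and 0.462 for OVCAR3 against SKOV3. The latter called 5 genes as reported, 186 with DESeq2, 226 with no filter, 58 at CPM of at least 5, 3 with robust edgeR, 2 with limma-voom, and 0 with DESeq2 size factors or no block. With the block, leaving out any library left no residual degree of freedom, so no such test was run; without the OVCAR3-labelled KO library only the SKOV3-labelled ratios are left. No paired analysis was possible because, by replicate number, every title carries 1; the tests over both lines pair each KO with the mock of its own line through the line block, and without that block 0 members were called.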

Other observations

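Lipid genes outside the 2 synthesis arms were also read in the OVCAR3-labelled pair, where 15.4% of all and 18.3% of protein-coding genes were at least 2-fold lower and 22.5% and 13% higher. Among fatty acid oxidation genes 3 of 11 measured (27.3%, of 12 listed) were at least 2-fold lower and none higher, with a median of -0.68. CPT1A, which admits long-chain acyl groups to mitochondria, had -1.85 (-1.98 to -1.72), CPT2, its partner on the inner membrane, -1.07 (-1.37 to -0.80), and ACADS, a short-chain dehydrogenase, -1.04 (-1.35 to -0.76). Of 13 measured glycerolipid genes none was lower and 1 was higher, LPIN3, a phosphatidate phosphatase, at 1.24 (0.94 to 1.58), with a list median of -0.46. Genes of sterol storage and transport had 3 of 11 (27.3%) lower and 2 higher, with a median of 0.01 that was below 0 under each other scaling. NPC1, which exports cholesterol from lysosomes, had -1.84 (-2.02 to -1.67), while NPC2, its soluble partner, had 1.02 (0.89 to 1.15). OSBP, an oxysterol-binding transfer protein, had -1.77 (-1.92 to -1.63), and SCARB1, a lipoprotein receptor, -1.58 (-1.75 to -1.41). NPC2 falls outside the rule for naming genes and was chosen after its value was seen. Among LXR and efflux genes 2 of 7 (28.6%) were lower and none higher: NR1H2, the gene of LXR beta, at -1.50 (-1.75 to -1.26) and LPCAT3, an LXR target that remodels phospholipids, at -1.16 (-1.37 to -0.96).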
